A study of Mus musculus with 12 samples.

Results

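The mRNAs of 10 haemopoietic cytokine receptor chains were examined in primitive murine bone marrow (BM) cells with and without BCR::ABL1: Kit, Csf2ra, Il3ra, Csf2rb, Csf2rb2, Csf3r, Il6ra, Il6st, Il1r1 and Ifngr1. They were chosen by symbol as a receptor family, matched to their Ensembl gene identifiers, and are 10 of the 56748 genes in the deposited files. All 10 passed the filter on low counts, with between 8149 (Il3ra) and 188972 (Kit) counts over 12 libraries.

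The model, SCLtTA/BCR-ABL (double transgenic, DTG), is switched by a drug: the SCL promoter drives a tetracycline-repressed activator, and human BCR::ABL1 is therefore silent while tetracycline (TET) is given. CD45.2+ DTG BM, pooled from frozen marrow of donors of both sexes according to the methods, was transplanted into CD45.1 B6.SJL recipients aged 8 to 12 weeks after 2 irradiation doses of 4.25 Gy given 3 h apart. All recipients received TET for 2 weeks, after which it was stopped for 2 weeks (BCR::ABL1+, labelled CML 2wk, n = 6 libraries) or continued (BCR::ABL1−, labelled CTRL, n = 6 libraries). Donor Lin−Sca+Kit+ (LSK) cells, the fraction that holds stem and multipotent progenitor cells, were sorted for bulk RNA-seq, and the comparison asks how receptor transcripts differ once BCR::ABL1 has been expressed. Irradiation, transplantation and the transgenes are thus common to both groups, and host cells are kept out only by the CD45.2 gate. TET itself differed between the groups, so an effect of stopping the drug and one of BCR::ABL1 cannot be told apart. Nothing in the labels ties a library to a single animal, so p-values measure the spread between libraries.

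Each receptor of this family binds a soluble cytokine outside the cell and passes the signal on through kinases inside it. KIT, the stem cell factor receptor, carries its own tyrosine kinase. The GM-CSF and IL-3 receptors pair a ligand-specific α chain (Csf2ra, Il3ra) with a shared β chain (Csf2rb), to which mice add an IL-3-specific β chain (Csf2rb2). The G-CSF receptor (Csf3r) acts as a homodimer, the IL-6 receptor (Il6ra) needs the signalling chain gp130 (Il6st), and the IL-1 and interferon-γ receptors need the accessory chains Il1rap and Ifngr2. All of these except the IL-1 receptor and KIT depend on JAK kinases bound to their chains, with STAT factors as the main carriers to the nucleus.

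Depth ran from 22804754 to 41832868 counts per BCR::ABL1− library and from 16150817 to 25070105 per BCR::ABL1+ library, and mitochondrial genes took 0.816 to 1.29% and 2.26 to 2.97% of the counts. BCR::ABL1+ libraries varied more (biological coefficient of variation 32.6% against 10.9%, and 24.6% without replicate 2). BCR::ABL1+ replicate 2 had the highest summed mast cell and basophil markers, 2682 CPM (counts scaled to library size). The lowest BCR::ABL1+ library had 497 CPM, and BCR::ABL1− had 317 to 430 CPM. Its summed stromal and endothelial markers were also the highest, at 954 CPM. The lowest BCR::ABL1+ library had 176 CPM of these, and BCR::ABL1− had 192 to 251 CPM. Of the LSK markers, Ly6a (Sca-1) was present at 27.2 to 74.1 CPM and Kit at 323 to 800 CPM in all 12 libraries. Of 10 stem and progenitor markers 7 were called lower in BCR::ABL1+ and 2 higher, against 29% and 30.6% over all genes. The labels give Male for every BCR::ABL1− library and Female for every BCR::ABL1+ library, so labelled sex and BCR::ABL1 cannot be told apart. The counts went against the label Male: Xist, expressed from the inactive X, ranged over 3794 to 4425 CPM in BCR::ABL1− against 2183 to 3502 CPM in BCR::ABL1+, and Y-linked Ddx3y had at most 24 counts in any library but BCR::ABL1+ replicate 2, where it had 202. A donor pool of both sexes, which the methods name, was thus not visible as Y-linked transcript in most libraries. The origin of this difference was not tested.

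The levels below are CPM on library sizes corrected by the trimmed mean of M values (TMM), and a gene was called when its p from the quasi-likelihood test of edgeR, adjusted by Benjamini-Hochberg over 18438 genes, was under 0.05. By this rule 4 members were higher in BCR::ABL1+ (Csf2rb2, Ifngr1, Csf2rb and Il1r1), 4 were lower (Kit, Csf2ra, Il6ra and Csf3r), and Il3ra and Il6st were not called. Across all genes 59.5% were called, 30.6% higher and 29% lower, so 8 of 10 called members is read against a background in which most genes were called. In 6 of the 10 members the libraries of the groups did not overlap, 3 in each direction, against 37.6% of all genes, 17% higher and 20.6% lower. The median log2 fold change was −0.14 over the members and 0.07 over all genes tested. In these bulk samples, fewer cells of a type and less RNA per cell cannot be told apart.

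**Figure D1:**
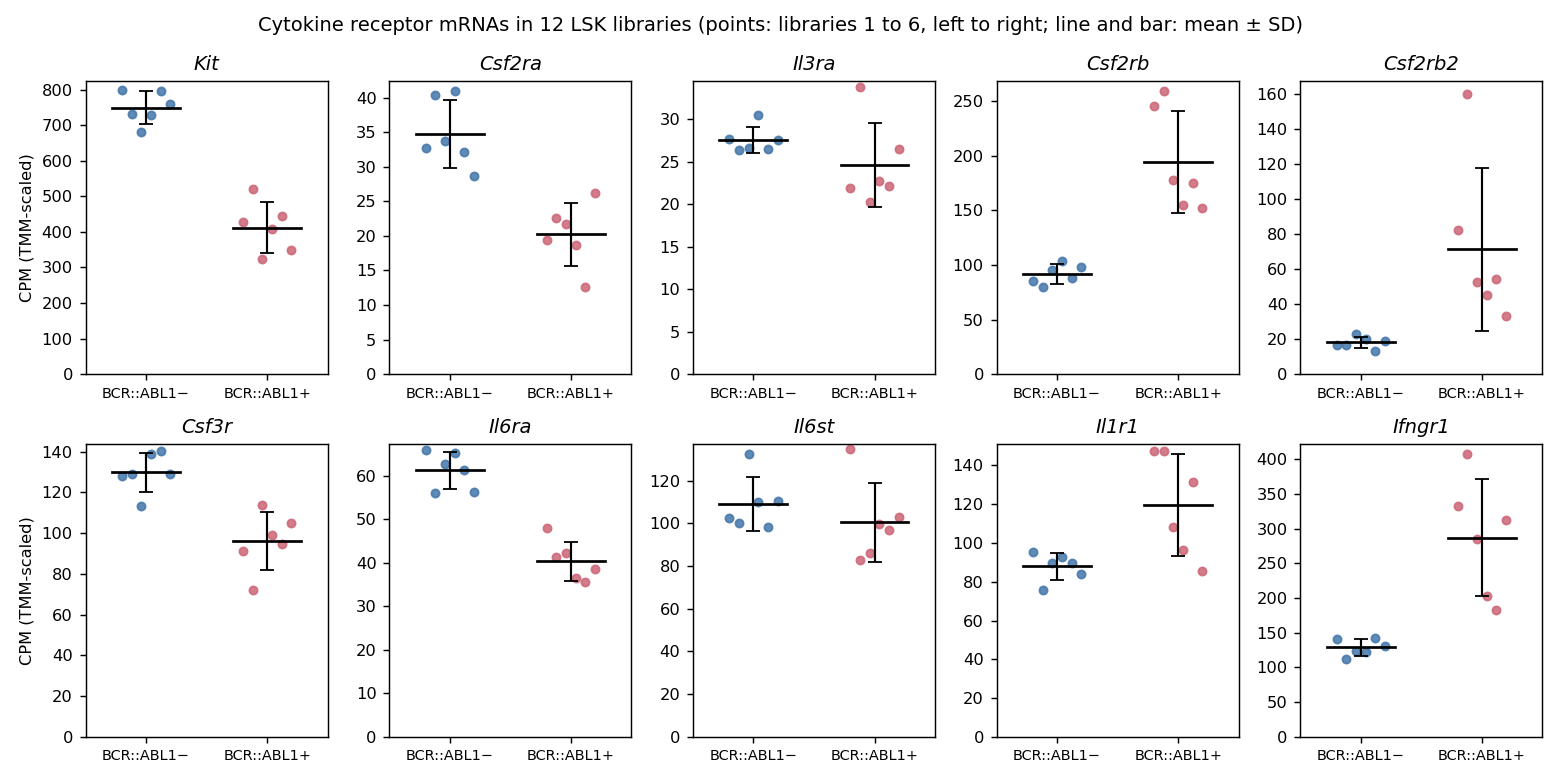
CPM (y axis, TMM-scaled, from 0) of the 10 receptor mRNAs in 6 BCR::ABL1− (blue) and 6 BCR::ABL1+ (red) LSK libraries; points are libraries 1 to 6 from left to right, and line and bar are mean ± SD. Kit, Csf2ra and Il6ra lie lower and Csf2rb, Csf2rb2 and Ifngr1 higher in BCR::ABL1+ with no overlap, and BCR::ABL1+ replicate 2 reached 160.2 CPM of Csf2rb2.

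Kit fell. KIT protein was itself a sorting criterion, so this is a difference within cells that had all passed the Kit+ gate. Its mRNA had a lowest, median and highest level of 681, 745 and 800 CPM in BCR::ABL1− and of 323, 418 and 522 CPM in BCR::ABL1+. All 6 BCR::ABL1+ libraries lay below all 6 BCR::ABL1− libraries, with means of 749 ± 45.5 (SD) and 412 ± 71.1 CPM. The log2 fold change was −0.86 (SE 0.101, 95% interval −1.08 to −0.65; edgeR adjusted p = 4.7e-06). Per transcript length it was the most abundant member in BCR::ABL1− and the second in BCR::ABL1+.

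The α chains of the GM-CSF and IL-3 receptors differed in their calls. Csf2ra, the chain that makes the receptor specific for GM-CSF, had a lowest, median and highest level of 28.7, 33.2 and 41.0 CPM in BCR::ABL1− and 12.6, 20.6 and 26.2 CPM in BCR::ABL1+. The groups did not overlap, and the log2 fold change was −0.78 (SE 0.146, 95% interval −1.10 to −0.47; edgeR adjusted p = 0.000335). Il3ra, the IL-3-specific chain also known as CD123, had 26.4, 27.1 and 30.4 CPM in BCR::ABL1− and 20.3, 22.4 and 33.8 CPM in BCR::ABL1+. Here the groups overlapped: 4 BCR::ABL1+ libraries lay below all BCR::ABL1− libraries, and replicate 2 lay above them all. The log2 fold change of −0.16 (SE 0.11, 95% interval −0.40 to 0.07) did not pass (edgeR adjusted p = 0.213). Without BCR::ABL1+ replicate 2 it was −0.29 and was called (edgeR adjusted p = 0.00492), so this library decided the call. Il5ra, the α chain for IL-5, was scarce, 1.02 to 2.72 CPM in BCR::ABL1− against 2.32 to 4.36 CPM in BCR::ABL1+, with a log2 fold change of 0.66 (SE 0.238; edgeR adjusted p = 0.0272).

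Both β chains rose. Csf2rb, the signalling chain used by the GM-CSF, IL-3 and IL-5 receptors, had a lowest, median and highest level of 79.9, 91.4 and 104.1 CPM in BCR::ABL1− and 152, 177 and 260 CPM in BCR::ABL1+. Every BCR::ABL1+ library exceeded every BCR::ABL1− library, and the log2 fold change was 1.08 (SE 0.132, 95% interval 0.80 to 1.37; edgeR adjusted p = 6.7e-06), a 2.12-fold rise. Csf2rb2 went from 13.3, 17.9 and 22.9 CPM to 33.0, 53.4 and 160.2 CPM. Its groups did not overlap either, but its BCR::ABL1+ libraries had the widest relative spread of the members (coefficient of variation 65.2%), with replicates 2 (160.2 CPM) and 1 (82.6 CPM) the highest. The log2 fold change was 1.98 (SE 0.315, 95% interval 1.30 to 2.65; edgeR adjusted p = 8.2e-05), and 1.55 without BCR::ABL1+ replicate 2. Most mast cell and basophil markers moved the same way: 7 of 10 were called higher and 1 lower, against 30.6% and 29% over all genes. Of the 10, 9 had their highest BCR::ABL1+ level in replicate 2. Cpa3, a mast cell protease, rose from 41.9 to 94.4 CPM to 156 to 916 CPM. Tpsab1, a tryptase, was at 0 counts in 4 of the BCR::ABL1− libraries. The part of these markers in the β chain result was not tested.

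These loci are close copies, so their reads can be confused. In the GENCODE M21 transcripts the coding sequences (2691 bases for Csf2rb, 2637 for Csf2rb2) were 95.2% identical over 2631 aligned bases, with 126 differences, and 92.0% of 876 aligned residues matched. The pair of 120-base windows with the most differences is shown first because reads there can be assigned, with the 22 differing bases in capitals (coding bases 309 to 428 of Csf2rb and 312 to 431 of Csf2rb2):
Csf2rb: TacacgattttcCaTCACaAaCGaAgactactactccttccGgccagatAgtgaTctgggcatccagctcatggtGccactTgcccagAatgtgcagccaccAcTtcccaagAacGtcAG
Csf2rb2: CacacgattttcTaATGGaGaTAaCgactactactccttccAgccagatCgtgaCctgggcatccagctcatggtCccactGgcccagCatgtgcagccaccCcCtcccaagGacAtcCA
By contrast, from coding base 2083 the copies shared an identical run of 242 bases, in which a short read belongs to either gene. Its first 120 bases, with 0 differences, are:
Csf2rb: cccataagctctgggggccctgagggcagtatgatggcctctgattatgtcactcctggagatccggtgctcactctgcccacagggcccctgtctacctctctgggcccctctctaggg
Csf2rb2: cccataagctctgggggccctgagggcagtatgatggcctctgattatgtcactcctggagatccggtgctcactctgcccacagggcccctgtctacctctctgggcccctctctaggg
Of all 50-base stretches in the whole Csf2rb transcript (4900 bases) 18.4% also occurred in the Csf2rb2 transcript, and of all 100-base stretches 6.96%. The shares within the coding sequence alone were not computed. The read length and the handling of reads that fit several places are not given in the sources used here. Where the counting could not separate the copies, the value for each gene is uncertain, while the summed β chain level does not depend on how shared reads were split between them, though it does on whether they were kept.

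The summed β chains had 96.6 to 124 CPM in BCR::ABL1− against 185 to 420 CPM in BCR::ABL1+, again without overlap. Csf2rb2 contributed 13.1 to 19.4% (median 16.2%) of β chain counts in BCR::ABL1− and 17.8 to 38.2% (median 23.2%) in BCR::ABL1+. The within-library log2 difference Csf2rb2 minus Csf2rb thus rose by 0.74 (two-sided exact permutation over 6 against 6 libraries, p = 0.00433; adjusted over 6 chain comparisons 0.00649), with 5 of 6 BCR::ABL1+ libraries above all BCR::ABL1− libraries. The share of 38.2% was that of BCR::ABL1+ replicate 2, with 25.2% in the next library. Without replicate 2 the rise was 0.55 (exact permutation, adjusted p = 0.0104). Csf2rb had no promoter entry and was not searched, so the promoters of the β chains cannot be compared here. Of the 9 members with an entry, only Csf2rb2 had a window that held the STAT pattern TTCNNNGAA. The window runs from 250 bases before to 50 bases after the transcription start (RefSeq, GRCm38.p6, chr15:78305672-78305971, minus strand), and the capitals mark the match, which begins 15 bases before the start:
Csf2rb2: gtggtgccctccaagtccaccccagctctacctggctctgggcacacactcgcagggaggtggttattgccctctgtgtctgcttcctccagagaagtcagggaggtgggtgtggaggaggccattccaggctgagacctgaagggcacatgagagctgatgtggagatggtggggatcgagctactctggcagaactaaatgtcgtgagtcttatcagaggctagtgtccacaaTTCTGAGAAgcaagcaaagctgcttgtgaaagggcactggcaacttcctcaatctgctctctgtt
This motif, which reads as itself on the opposite strand, occurred in 8.30% of 32851 promoter windows of the same length. A further 4 patterns were searched on both strands and did not overlap the STAT match. Kit and Il1r1 each had 2 windows, for different start sites. The C/EBP pattern TTGCNNAA, present in 10.8% of windows, was found for Il3ra and in 1 of the 2 windows of Il1r1. The GATA pattern AGATAA, present in 11.2% of windows, was found for Il6ra. The E-box CACGTG, in 7.15% of windows, was found for Il6ra as well. The ETS pattern CCGGAAG, in 8.86% of windows, was found for none. A match describes letters in a window and not a bound site.

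Relative to the β chains, both α chains declined. For Csf2ra the partner is Csf2rb, since Csf2rb2 serves IL-3, and the log2 difference Csf2ra minus Csf2rb averaged −1.40 ± 0.255 (SD) in BCR::ABL1− and −3.26 ± 0.476 in BCR::ABL1+. This change of −1.86 left no overlap (exact permutation p = 0.00216, the smallest that 6 against 6 libraries allow; adjusted 0.00649), and setting Csf2ra against Csf2rb alone was chosen after seeing the data. Against the sum of both β genes, which does not depend on how their shared reads were split, the change was −2.02 (exact permutation p = 0.00216; adjusted 0.00649). Csf2ra alone was lower without overlap, and Csf2rb and the β sum were each higher without overlap. Neither Csf2ra difference could therefore overlap, so both p-values had to be the smallest possible and are no further support. For Il3ra, which can use either β chain, the difference from the sum of both β genes averaged −1.99 ± 0.116 and −3.39 ± 0.385. This change of −1.40 also left no overlap (exact permutation p = 0.00216; adjusted 0.00649), although Il3ra itself was not called. Scaled to transcript length, Csf2rb mRNA stood at 0.748 to 1.29 times Csf2ra (median 1.004) in BCR::ABL1− and at 2.19 to 5.26 times (median 3.72) in BCR::ABL1+. The ratio of both β genes to Il3ra was 1.74 to 2.11 (median 1.88) and 3.33 to 7.13 (median 5.17).

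**Figure D2:**
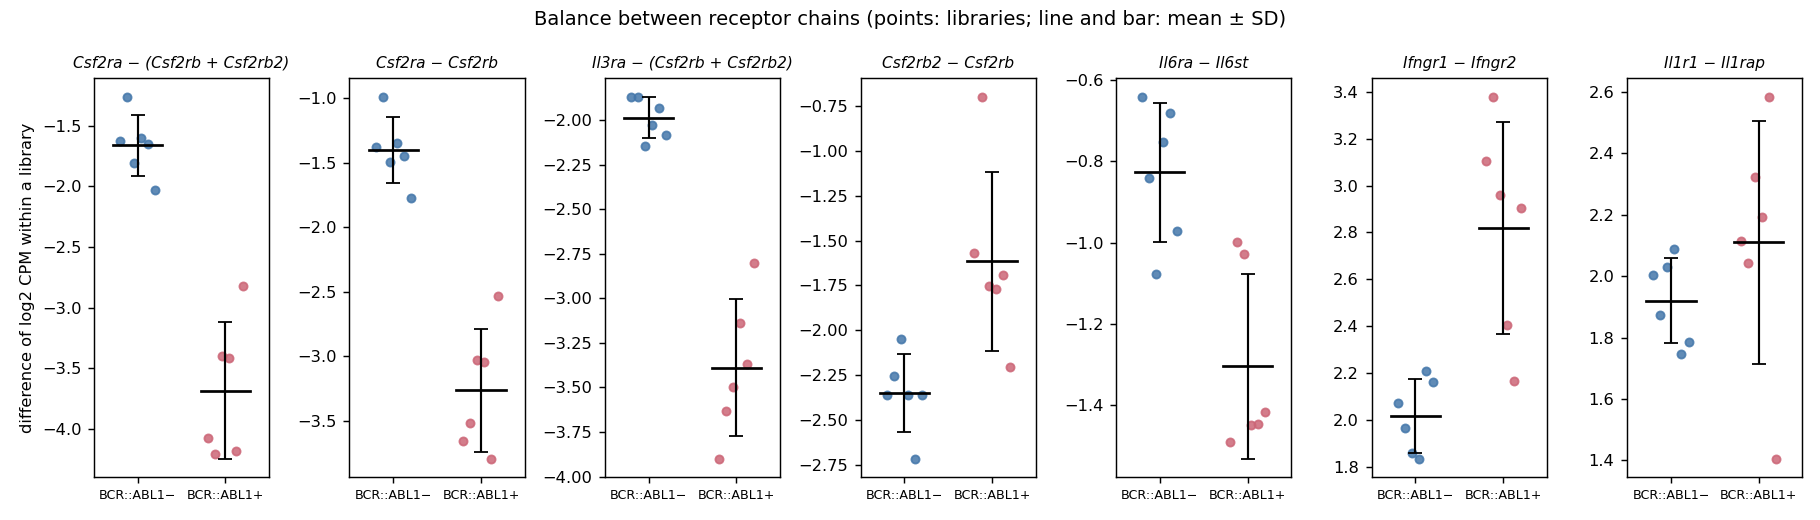
Within-library difference of log2 CPM (y axis) between receptor chains in 6 BCR::ABL1− (blue) and 6 BCR::ABL1+ (red) libraries; points are libraries, line and bar are mean ± SD, and each panel has its own y range that does not start at 0. Csf2ra fell by 1.86 relative to Csf2rb and by 2.02 relative to Csf2rb plus Csf2rb2, and Il3ra by 1.40 relative to that sum, without overlap, while Il1r1 minus Il1rap overlapped.

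Csf3r, the receptor that drives granulocyte production in response to G-CSF, was lower. Its lowest, median and highest levels were 113.5, 129 and 140 CPM in BCR::ABL1− and 72.0, 96.9 and 114 CPM in BCR::ABL1+, and 5 of 6 BCR::ABL1+ libraries lay below all BCR::ABL1− libraries. The log2 fold change was −0.44 (SE 0.093, 95% interval −0.63 to −0.24; edgeR adjusted p = 0.000986). Neutrophil markers were mixed in the same libraries, with 4 of 10 higher and 5 lower, against 30.6% and 29% over all genes. The median log2 fold change of these markers was −1.47. Those higher were the early granule genes Ctsg (2.90), Prtn3 (1.96), Elane (1.45) and Mpo (0.67), and those lower were genes of later neutrophils, Ngp (−2.94), Camp (−2.87), Ly6g (−2.56), Ltf (−2.31) and S100a9 (−1.91, all log2 fold changes). The summed level of the list was 2322 to 4664 CPM in BCR::ABL1− against 3115 to 8541 CPM in BCR::ABL1+, and its part in the Csf3r result was not tested.

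The IL-6 receptor chains moved unequally. Il6ra, which binds IL-6, had a lowest, median and highest level of 55.9, 62.0 and 65.8 CPM in BCR::ABL1− and 35.5, 39.9 and 47.9 CPM in BCR::ABL1+. The groups did not overlap, and the log2 fold change was −0.60 (SE 0.077, 95% interval −0.77 to −0.44; edgeR adjusted p = 1.1e-05). Il6st, the signalling chain shared by the receptors for IL-6, LIF and related cytokines, had 98.3, 106 and 132 CPM in BCR::ABL1− and 82.8, 98.3 and 135 CPM in BCR::ABL1+. Of the BCR::ABL1+ libraries 3 lay below all BCR::ABL1− libraries, 2 lay within their range, and replicate 1 lay above them all. The log2 fold change of −0.12 (SE 0.109, 95% interval −0.35 to 0.12) did not pass (edgeR adjusted p = 0.368), though without BCR::ABL1+ replicate 1 it was −0.22 (edgeR adjusted p = 0.0417). Il6ra minus Il6st within libraries fell by 0.48 on the log2 scale (exact permutation p = 0.00866; adjusted 0.0104), with 4 of 6 BCR::ABL1+ libraries below all BCR::ABL1− libraries.

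Il1r1, the signalling receptor for IL-1, rose modestly. Its lowest, median and highest levels were 76.0, 89.7 and 95.2 CPM in BCR::ABL1− and 85.7, 119.997 and 148 CPM in BCR::ABL1+, with 5 of 6 BCR::ABL1+ libraries above all BCR::ABL1− libraries and replicate 6 within their range. The log2 fold change was 0.44 (SE 0.124, 95% interval 0.18 to 0.71; edgeR adjusted p = 0.00666). Il1rap, the accessory chain IL-1 signalling requires, was at 20.7 to 26.7 CPM and 21.1 to 35.7 CPM and was not called (log2 fold change 0.26, SE 0.142; edgeR adjusted p = 0.124). The difference Il1r1 minus Il1rap changed by 0.19 (exact permutation p = 0.301; adjusted 0.301), but by 0.33 without BCR::ABL1+ replicate 6 (exact permutation, adjusted 0.0104).

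Ifngr1, the ligand-binding chain for interferon-γ, rose more. It had a lowest, median and highest level of 111.5, 128 and 142 CPM in BCR::ABL1− and 183, 299 and 408 CPM in BCR::ABL1+. No BCR::ABL1+ library fell into the BCR::ABL1− range, and the log2 fold change was 1.15 (SE 0.162, 95% interval 0.81 to 1.501; edgeR adjusted p = 2.6e-05), or 2.23-fold. Ifngr2, the chain that completes the receptor, rose from 28.5 to 34.4 CPM to 36.6 to 41.7 CPM, a log2 fold change of 0.30 (SE 0.066; edgeR adjusted p = 0.00129). Ifngr1 minus Ifngr2 within libraries therefore increased by 0.80 (exact permutation p = 0.00433; adjusted 0.00649), in 5 of 6 libraries beyond the BCR::ABL1− range.

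**Figure D3:**
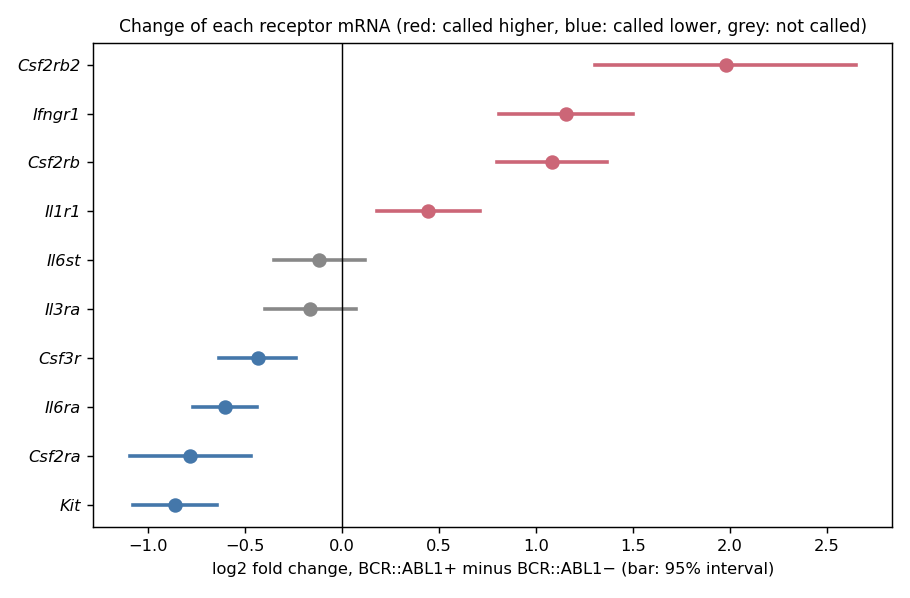
Log2 fold change, BCR::ABL1+ minus BCR::ABL1− (x axis), of each of the 10 receptor mRNAs (y axis) with its 95% interval from edgeR, red for called higher, blue for called lower and grey for not called. Csf2rb2 at 1.98 has the widest interval, and the intervals of Il6st and Il3ra include 0.

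The order of the members by CPM per kilobase of the longest protein-coding transcript shifted. In BCR::ABL1− Kit led at 143 ± 8.68 (SD) CPM per kb, followed by Ifngr1 at 61.1 ± 5.67 and Csf3r at 37.3 ± 2.76, with no overlap between these. Csf2ra (18.8), Csf2rb (18.7), Il1r1 (15.1), Il6st (12.6) and Il3ra (11.9 CPM per kb) came next, and neighbours in this stretch overlapped. Il6ra (7.09 ± 0.494 CPM per kb) and Csf2rb2 (3.82 ± 0.710 CPM per kb) were the least abundant. In BCR::ABL1+ Ifngr1 (136 ± 39.8 CPM per kb) and Kit (78.6 ± 13.6 CPM per kb) overlapped at the top, and Csf2rb (39.6) overlapped with Csf3r (27.6) behind them. Il1r1 (20.5), Csf2rb2 (15.0), Il6st (11.6), Csf2ra (10.9) and Il3ra (10.6 CPM per kb) formed an overlapping series above Il6ra (4.67 CPM per kb). Csf2rb2 thus moved from rank 10 to rank 6 of the 10 members, or to rank 7 without BCR::ABL1+ replicate 2 (11.3 CPM per kb), and Csf2ra from 4 to 8. With the union of all exons as length, an alternative chosen after seeing the data, Csf2ra went from rank 6 to 9 and overlapped with Il6ra in BCR::ABL1+, Csf2rb2 again from 10 to 6, and Ifngr1 (100.9 CPM per kb) no longer overlapped with Kit (46.2 CPM per kb) in BCR::ABL1+.

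Members also varied within the groups. After the group means were removed, log2 CPM of Csf2rb and Csf2rb2 had a Pearson r of 0.89 over the 12 libraries, and Csf2rb and Il1r1 of 0.83. Csf2rb2 and Csf3r went in opposite directions (r of −0.84). BCR::ABL1+ replicate 2 had the highest Csf2rb2 (160.2 CPM) and the lowest Csf3r (72.0 CPM) of all 12 libraries. Among 10158 genes with a mean log2 CPM of at least 3, the pattern most like Csf2rb and Csf2rb2 was that of Myb in each case (0.94 and 0.94). The most alike were Por for Kit (0.96), Fam160a2 for Csf2ra (0.96), Rassf8 for Il3ra (0.97), Ankrd28 for Ifngr1 (0.98), Rmdn1 for Csf3r (0.93), Wdr45b for Il6ra (0.92), Trappc8 for Il6st (0.90) and Phtf1 for Il1r1 (0.92). These are descriptions over libraries that share depth, marker content and, for the β chains, reads. No r was computed without BCR::ABL1+ replicate 2.

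Other cytokine receptors changed in both directions. Of 36 listed, 34 could be tested, and 12 were called higher and 16 lower. The shares over all genes were 30.6% higher and 29% lower. The median log2 fold change was −0.22 for these receptors against 0.07 over all genes. Il2ra (CD25, the IL-2 receptor α chain) had a lowest, median and highest level of 0.113, 0.912 and 1.27 CPM in BCR::ABL1− and 2.02, 7.21 and 39.0 CPM in BCR::ABL1+ (log2 fold change 3.78, SE 0.669; edgeR adjusted p = 0.00021). Il1rl1 (ST2, the IL-33 receptor) went from 8.45, 10.8 and 21.3 CPM to 49.2, 95.3 and 255 CPM (log2 fold change 3.09, SE 0.376; edgeR adjusted p = 6.5e-06). Both were highest in BCR::ABL1+ replicate 2, the library with the most mast cell and basophil transcript. Il2rb, a chain of the IL-2 and IL-15 receptors, fell from 2.00 to 5.92 CPM to 0.128 to 3.01 CPM (log2 fold change −1.68, SE 0.470; edgeR adjusted p = 0.0067).

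The ligands of these receptors were scarce in the sorted cells. Of 20 listed ligands 9 could be tested, with 2 higher, 1 lower and a median log2 fold change of 0.19. The shares over all genes were 30.6% higher and 29% lower. No library held a count of Il3 (0 in each), so that its level could be at most 0.0717 to 0.186 CPM, the worth of 3 counts in the deepest and the shallowest library. The GM-CSF gene Csf2 was at 0 in 7 libraries and the interferon-γ gene Ifng in 7, both chosen for naming by their role. Il6 rose from 0.177 to 0.598 CPM to 1.16 to 8.17 CPM (log2 fold change 3.30, SE 0.496; edgeR adjusted p = 4.8e-05), and Lif, which signals through Il6st, from 0.294 to 0.974 CPM to 1.28 to 19.1 CPM (log2 fold change 3.34, SE 0.569; edgeR adjusted p = 0.000149). Lif was 19.1 CPM in BCR::ABL1+ replicate 2 and at most 4.99 CPM in the others, whose mean was 3.50 CPM against 6.10 CPM with it (log2 fold change 2.52 without it, SE 0.354; edgeR adjusted p = 2.2e-05). Of the 20 ligands 11 had their highest BCR::ABL1+ level in that library, which also held the most stromal and mast cell transcript, whose part was not tested. Flt3l, the ligand of the FLT3 receptor, fell from 7.82 to 9.99 CPM to 2.94 to 6.35 CPM (log2 fold change −1.13, SE 0.178; edgeR adjusted p = 7.2e-05).

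Inside the cell, all 11 JAK kinases and STAT factors were called lower, with no overlap between groups for any of them and a median log2 fold change of −0.77. Over all genes 29% were called lower and 20.6% were lower without overlap. Stat2 (log2 fold change −1.22, SE 0.069; edgeR adjusted p = 1.7e-08) had 50.5, 56.5 and 62.3 CPM in BCR::ABL1− and 21.9, 24.2 and 26.5 CPM in BCR::ABL1+ as lowest, median and highest. Jak2, Stat5a and Stat5b, named for their place behind the β chain with their values already seen, had log2 fold changes of −0.76, −0.77 and −0.89.

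Adaptors and feedback regulators were mostly lower, with 16 of 27 lower, 4 higher and a median log2 fold change of −0.39. The shares over all genes were 29% lower and 30.6% higher. Socs3, the feedback inhibitor that binds gp130 and the G-CSF receptor, was the exception in size: it had 4.53, 6.61 and 8.82 CPM in BCR::ABL1− and 27.997, 35.1 and 50.7 CPM in BCR::ABL1+ (log2 fold change 2.44, SE 0.177; edgeR adjusted p = 7.7e-08). Ptpn2, a phosphatase that acts on JAK kinases, also rose without overlap (log2 fold change 0.56, SE 0.079; edgeR adjusted p = 2.5e-05). Socs7 (log2 fold change −1.07, SE 0.074; edgeR adjusted p = 5.6e-08) and Pias3, a STAT inhibitor (−1.03, SE 0.127; edgeR adjusted p = 7.4e-06), fell without overlap.

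Interferon-γ responsive genes went in the direction opposite to Ifngr1 and Ifngr2, with 17 of 20 lower, 2 higher and a median log2 fold change of −1.17. Of the 20, 14 did not overlap, all of these lower. The shares over all genes were 29% lower, 30.6% higher and 20.6% lower without overlap. Gbp4, an interferon-inducible GTPase, fell from 3.59, 5.77 and 7.52 CPM to 0.488, 0.626 and 2.71 CPM (log2 fold change −2.29, SE 0.414; edgeR adjusted p = 0.000253). Cxcl9, a chemokine, fell from 2.90 to 6.91 CPM to 0 to 3.85 CPM (log2 fold change −2.27, SE 0.759; edgeR adjusted p = 0.0182). Gbp3 (0.48, SE 0.172; edgeR adjusted p = 0.0254) and Psmb8, an immunoproteasome subunit (0.27, SE 0.101; edgeR adjusted p = 0.031), were the 2 called higher on the log2 scale, and their groups overlapped; neither was called without replicate 2 or 5 of BCR::ABL1− or replicate 1 or 6 of BCR::ABL1+.

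**Figure D4:**
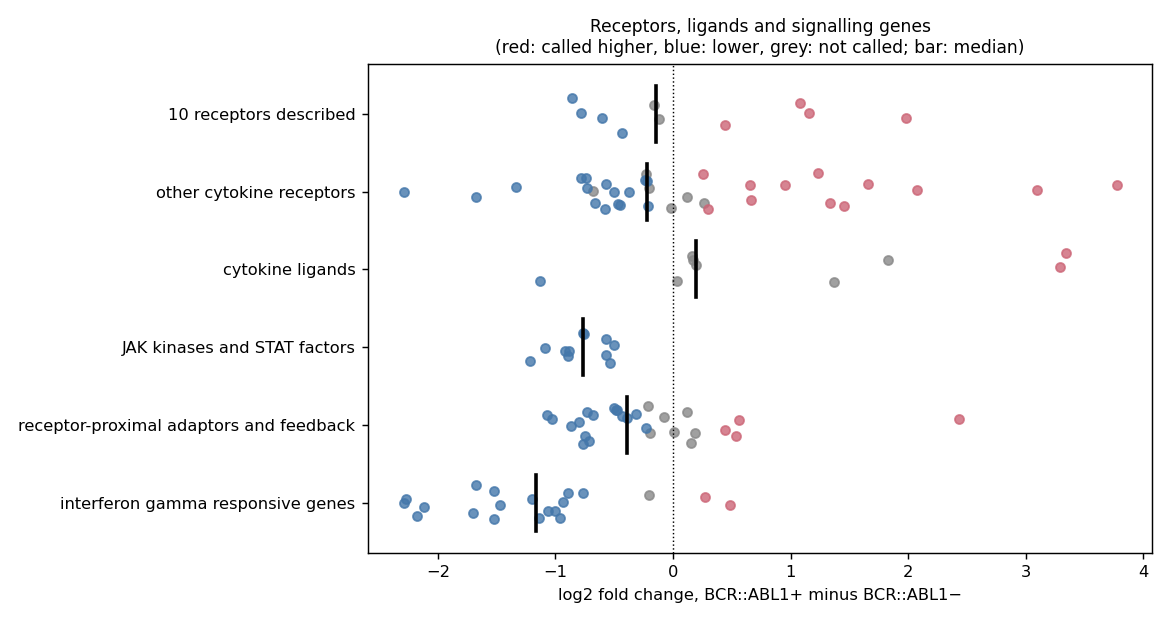
Log2 fold change, BCR::ABL1+ minus BCR::ABL1− (x axis), of every tested gene in the receptor family and in 5 lists of related genes (y axis), red for called higher, blue for called lower, grey for not called, with a bar at each list's median. The 11 JAK kinases and STAT factors all lie below 0, and the interferon-γ responsive genes have the lowest median, −1.17.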

How the data were processed

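Donor LSK BM cells of 6 BCR::ABL1− and 6 BCR::ABL1+ libraries were profiled by bulk RNA-seq, prepared with the Kapa RNA HyperPrep kit per the labels. The authors deposited raw counts per Ensembl gene, without normalization. The sources differ on how these counts were made: the submitters' processing notes name FastQC 0.11.9, fastp 0.23.2, STAR 2.7.10a, featureCounts 2.0.1, DESeq2 1.36.0 and mm39/GRCm39, whereas the methods name Trim Galore!, HISAT2, featureCounts and a human build. The annotation release, the strand setting and the handling of multimapping reads are not given in the sources used here, and all 3 can shift counts between overlapping genes or close copies. Transcript models and promoters came from GENCODE M21 and RefSeq GRCm38.p6, an older build, so no coordinates are given for the counted genes. Symbols were matched by identifier (52073 of 56748).

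Counts were analysed with edgeR 4.0.16 in R 4.3.3 (TMM, filterByExpr, quasi-likelihood test, 18438 genes, Benjamini-Hochberg, threshold 0.05), with DESeq2 1.42.0 as an alternative. Log2 CPM used a prior count of 2. Chain differences were tested by exact permutation over all 924 splits, with numpy 2.4.6 in Python 3.11.15, and sequences were aligned with biopython 1.88. Depth was 16150817 to 41832868 counts per library. The limit set by a count of 0 is 3 counts, and such limits cover counting error only. No 2 libraries agreed within sampling noise. The edgeR fit and the permutation test were tested on simulated data.

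The members and lists were chosen with earlier results of these data known. Named were the 10 members, the 2 genes of each list with the largest called change each way, the partner chains Il1rap, Ifngr2 and Il5ra, defining markers beside a member, and the genes most like each member (3 were found for each, and the first is given). Of these, 2 list genes are not reported here. Jak2, Stat5a, Stat5b, Il3, Csf2 and Ifng were added for their role, and Xist and Ddx3y as a check of the labels. Alternatives were another scaling, prior count, filter, threshold and tool, the replicate block, Csf2rb and Csf2rb2 summed, and leaving out libraries. Csf2rb alone as the partner of Csf2ra and union exon lengths were added after seeing the data.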

Additional observations from a re-analysis of the deposited data

Results flagged for a closer look

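In 8 of 68 sets of 6 libraries examined for the genes named above, 1 library lay farther from the others than Dixon's test allows at its 95% critical value, where chance gives about 1 in 20 sets, or 3.4. Among the receptors, Il3ra in BCR::ABL1− was 30.4 CPM in replicate 4 against 27.7 CPM in the next library, and Il6st in BCR::ABL1− was 132 CPM in replicate 3 against 110.6 CPM. Il2ra was 0.113 CPM in BCR::ABL1− replicate 6, below the next value of 0.841 CPM.

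In BCR::ABL1+ replicate 2, Il2ra was 39.0 CPM against 11.6 CPM in the next library, Il1rl1 was 255 CPM against 123 CPM, and Lif was 19.1 CPM against 4.99 CPM. In BCR::ABL1+ replicate 6, Cxcl9 was 3.85 CPM against 1.41 CPM. Ptpn2 was lowest in BCR::ABL1− replicate 2, at 45.0 CPM against 50.6 CPM.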

How the results depend on the processing

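The 8 called receptors kept their direction and call under every alternative run. Leaving out 1 library at a time, the receptors called higher stayed at 4 and those called lower ranged from 4 to 5, the fifth being Il3ra (−0.29, edgeR adjusted p = 0.00492, without BCR::ABL1+ replicate 2) or Il6st (−0.22, edgeR adjusted p = 0.0417, without BCR::ABL1+ replicate 1). Il3ra was also called without BCR::ABL1+ replicate 2 and BCR::ABL1− replicate 6 together (−0.27, edgeR adjusted p = 0.0126). Ligands called higher numbered 2, but 6 by DESeq2, 5 with no filter on low counts, and 2 to 4 with a library left out (4 without BCR::ABL1− replicate 4 or BCR::ABL1+ replicate 5). Interferon-γ responsive genes called higher numbered 2, but 0 with no filter, 0 at a threshold of 0.01, 1 without number 6 of both groups, and 0 to 2 with a library left out. Il1r1 minus Il1rap ranged from 0.0942 to 0.33 with a library left out, the latter without BCR::ABL1+ replicate 6 (exact permutation, adjusted p = 0.0104). The cause of these shifts was not tested. Labels give both groups the numbers 1 to 6. Same-numbered libraries did not deviate together (correlations −0.125 to 0.068, 0 of 6 over 0.1). Of the BCR::ABL1− libraries, 1 of 6 correlated best with the BCR::ABL1+ library of its own number. The labels do not say whether same-numbered libraries share more than a number, and these correlations cannot settle it. With the replicate block, 4786 genes were called higher and 5189 lower (5637 and 5339 without it), and the receptors called stayed at 4 and 4. Under that pairing, an exact permutation by sign flips whose smallest p is 0.0312, the chain differences Csf2ra minus β (−2.02), Il3ra minus β (−1.40) and Csf2rb2 minus Csf2rb (0.74) had an adjusted p of 0.0625, and Il6ra minus Il6st (−0.48) and Ifngr1 minus Ifngr2 (0.80) of 0.075. With Csf2rb alone in place of both β genes, chosen after seeing the data, Csf2ra minus β was −1.86 (exact permutation, adjusted p = 0.00649). The smallest libraries limit rare ligands most, since 3 counts there are 0.186 CPM.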
